A study of Mus musculus with 15 samples.

Results

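The genes described here are 8 genes of fat cell lipolysis: the lipases Pnpla2, Lipe and Mgll, the lipase cofactors Abhd5 and G0s2, the insulin-side regulators Pde3b and Abhd15, and the glycerol channel Aqp7. They were chosen by name, with earlier results of these data known. All 8 were found by Entrez Gene number among the 26301 gene numbers of the count tables. RNA-seq read counts were available for 15 libraries, 3 in each of 5 conditions, from 3T3-L1 cells, a mouse preadipocyte line that becomes adipocytes when given a hormone cocktail. In the knockdown set, cells carried a retroviral vector without a short hairpin RNA (sh-Empty) or with a hairpin against Jmjd1a (sh-Jmjd1a), and stable lines were kept by antibiotic selection. Jmjd1a, also named Kdm3a, encodes a demethylase of histone H3K9. In the rescue set, sh-Jmjd1a cells received a second retrovirus that expressed LacZ, hairpin-resistant JMJD1A(WT), or JMJD1A(H1122A), a mutant deficient in binding the iron of the enzyme. All conditions were given insulin, dexamethasone and the phosphodiesterase inhibitor IBMX, and all were sampled on day 2 of differentiation, so no library shows unstimulated cells. The labels and methods do not say whether the 3 libraries of a condition came from separate cultures or infections, and the p-values measure only the spread between these libraries.

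Lipolysis breaks the triglyceride of the lipid droplet into fatty acids and glycerol in successive steps: ATGL (the product of Pnpla2) removes the first fatty acid, HSL (Lipe) the next and monoglyceride lipase (Mgll) the last. ABHD5 switches ATGL on and G0S2 blocks it. Catecholamines raise cAMP, and protein kinase A then phosphorylates HSL and perilipin 1, which frees ABHD5 from the droplet coat. Insulin opposes this through PDE3B, the phosphodiesterase that breaks cAMP down, and ABHD15 is a partner of PDE3B in that brake. AQP7 lets the glycerol out of the cell. The comparisons ask how the messenger RNAs of these genes differed when JMJD1A was reduced, when it was returned, and when the returned protein lacked its iron site.

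Total counts ran from 11437058 to 25523148 per library, with a median of 12916162. The targeted gene Kdm3a was at 174 ± 7.36 CPM (read count scaled to library size; mean ± SD, n = 3) in sh-Empty, 131 ± 5.75 in sh-Jmjd1a and 119 ± 2.67 with LacZ, and the rescue constructs took it to 1697 ± 69.0 with JMJD1A(WT) and 2213 ± 90.1 with JMJD1A(H1122A). Adipocyte markers moved with the conditions: the summed CPM of 7 markers was 4850 to 4920 in sh-Empty, 2500 to 2620 in sh-Jmjd1a, 3170 to 3260 with LacZ, 3570 to 3920 with JMJD1A(WT) and 2500 to 2600 with JMJD1A(H1122A). Lpl made up most of this sum, at 3896 CPM on average in sh-Empty and 2344 in sh-Jmjd1a. Adipoq, Cfd and Retn fell by a larger factor, from 52.4, 24.0 and 24.9 CPM to 5.18, 1.80 and 2.33. All 7 were called lower on knockdown, above LacZ with JMJD1A(WT), and below JMJD1A(WT) with the mutant. Over all genes tested, 23.9%, 4.98% and 11.7% were called in these directions. The summed CPM of 8 preadipocyte and fibroblast markers was 7530 to 7650 in sh-Empty and 12800 to 13500 in sh-Jmjd1a. In the rescue set it was 15800 to 16000 with LacZ, 16700 to 17400 with JMJD1A(WT) and 15200 to 16000 with JMJD1A(H1122A). Within that set it was thus highest with JMJD1A(WT), as the adipocyte sum was. Most of this sum came from the collagen genes Col1a1 and Col3a1, at 1153 and 4735 CPM on average in sh-Empty and 3107 and 8661 in sh-Jmjd1a. Of 7 of these markers tested on knockdown, 4 were called higher and 2 lower, and the 2 lower ones, Dlk1 (842 to 502 CPM) and Ly6a (23.5 to 18.01 CPM), were also called above LacZ with JMJD1A(WT) and below JMJD1A(WT) with the mutant, as the adipocyte markers were. Macrophage, endothelial and epithelial markers summed to at most 4, 0.66 and 0.782 CPM, and the endothelial gene Tie1 was at 0 in every library. In bulk RNA a smaller number of differentiated cells and less RNA in each of them cannot be told apart, and the part of the marker shift in the values that follow was not tested.

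In the mm9 assembly the 5 genes with enough reads to test are Pnpla2 at chr7:148641097-148646642 on the plus strand, Lipe at chr7:26164546-26183729 on the minus strand, Abhd15 at chr11:77328623-77352109 on the plus strand, Abhd5 at chr9:122260726-122290642 on the plus strand and Pde3b at chr7:121558795-121682765 on the plus strand. The other 3 are Mgll at chr6:88674406-88778354 on the plus strand, Aqp7 at chr4:40980107-40995172 on the minus strand and G0s2 at chr1:195098355-195099382 on the minus strand. All 8 are protein-coding genes whose counts are reads over exons. Abhd15 shares 883 exonic bases (29.1% of its exon length) with Gm10392, 328 with Trp53i13 and 94 with Taok1, all on the opposite strand, while Lipe shares 264 (5.84%) with 4732471J01Rik and Mgll 90 (1.85%) with Gm16628, also on opposite strands. The methods name a directional library kit and the labels a kit of the same maker without that word, and the strand setting of the counting is not given in the sources used here. Without strand the reads of such partners cannot be told apart. No row of the count tables was paired with Gm10392 or Gm16628, so the reads of these partners were not analysed here, and their part in the counts of Abhd15 and Mgll was not tested. Trp53i13 was not called in any comparison (log2 fold change 0.16 on knockdown, edgeR adjusted p = 0.166), and 4732471J01Rik was at 0.464 to 0.810 CPM on average over the conditions, too low to be tested.

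RefSeq start sites (GRCm38.p6) were listed for 7 of the 8 genes, with 10 starts in all. The 250 bases before the starts of Pnpla2, Lipe and Abhd15 are printed because these 3 genes were called lower on knockdown by more than 2-fold, and those of Abhd5 because it differed by little. Capitals mark the GC box letters GGGCGG, or CCGCCC where they lie on the other strand, and neighbouring boxes may overlap.
Pnpla2, chr7:141454938-141455187, plus strand: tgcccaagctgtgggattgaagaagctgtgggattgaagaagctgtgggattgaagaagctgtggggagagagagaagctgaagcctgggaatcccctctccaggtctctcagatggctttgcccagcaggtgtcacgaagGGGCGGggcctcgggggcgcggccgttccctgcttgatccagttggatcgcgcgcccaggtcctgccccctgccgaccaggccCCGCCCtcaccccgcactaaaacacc
Lipe, upstream start, chr7:25395988-25396237, minus strand: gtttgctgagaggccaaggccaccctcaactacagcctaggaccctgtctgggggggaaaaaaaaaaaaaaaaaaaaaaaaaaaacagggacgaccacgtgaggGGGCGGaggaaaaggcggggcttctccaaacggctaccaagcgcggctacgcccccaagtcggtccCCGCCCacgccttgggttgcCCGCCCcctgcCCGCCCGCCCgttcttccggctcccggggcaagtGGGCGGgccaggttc
Lipe, downstream start, chr7:25390113-25390362, minus strand: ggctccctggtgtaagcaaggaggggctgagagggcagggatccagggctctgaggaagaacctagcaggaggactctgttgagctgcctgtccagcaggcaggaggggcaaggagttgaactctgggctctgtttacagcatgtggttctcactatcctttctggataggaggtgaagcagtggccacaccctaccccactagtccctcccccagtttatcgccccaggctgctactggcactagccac
Abhd15, chr11:77514867-77515116, plus strand: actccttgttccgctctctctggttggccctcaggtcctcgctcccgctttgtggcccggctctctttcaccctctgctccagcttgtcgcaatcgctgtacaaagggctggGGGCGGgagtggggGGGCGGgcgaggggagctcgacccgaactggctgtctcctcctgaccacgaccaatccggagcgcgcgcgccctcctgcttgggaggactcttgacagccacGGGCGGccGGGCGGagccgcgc
Abhd5, chr9:122351366-122351615, plus strand: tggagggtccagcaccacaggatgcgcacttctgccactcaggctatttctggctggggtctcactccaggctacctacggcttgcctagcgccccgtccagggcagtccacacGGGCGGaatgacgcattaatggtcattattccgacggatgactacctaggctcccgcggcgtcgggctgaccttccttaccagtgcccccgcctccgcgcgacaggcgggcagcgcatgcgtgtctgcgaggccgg
The GC box was found 2 times before Pnpla2, 6 times before the upstream Lipe start, 4 times before Abhd15 and 1 time before Abhd5, and not before the downstream Lipe start. It occurs in 32.7% of all 32851 windows of this length. The E box CACGTG, in 6.02% of all windows, was found before the upstream start of Lipe. The downstream start of Lipe holds TGTTTAC, a forkhead core present on either strand in 3.17% of windows, and Abhd5 holds TGACCT, the other strand of the nuclear receptor site AGGTCA found in 14% of windows. None of the 10 windows holds the paired receptor site AGGTCANAGGTCA (0.0335% of all windows), TTGCNNAA (9.56%) or the cAMP response element TGACGTCA (1.55%), each searched on both strands. GC content was 63.2% before Pnpla2, 62.8% and 58.8% before the Lipe starts, 68.8% before Abhd15 and 64.8% before Abhd5, against a median of 52.4% over all windows. Which start 3T3-L1 cells used cannot be read from counts per gene.

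Among the tested genes, the knockdown lowered Pnpla2 and Lipe most and the ATGL coactivator Abhd5 least. Of the 5 tested genes, 4 (Pnpla2, Lipe, Abhd15 and Abhd5) were called lower after knockdown than in sh-Empty and 1 (Pde3b) higher, where 23.9% of all 12272 genes tested were called lower and 22.3% higher at an edgeR adjusted p under 0.05. With JMJD1A(WT), 4 of the 5 (Pnpla2, Lipe, Abhd15 and Pde3b) were called higher than with LacZ and 0 lower, against 4.98% and 4.52% of 12557 genes. The mutant gave a call below JMJD1A(WT) for all 5, against 11.7% of all genes called lower and 12.1% higher. Set against LacZ, the mutant gave lower levels of 3 (Pnpla2, Lipe and Abhd15) and a call for neither Abhd5 nor Pde3b, where 4.46% of genes were called lower and 4.78% higher. The median log2 fold change of the 5 was -1.15, 0.43, -0.49 and -0.28 in this order, while the median of all genes tested lay between -0.00315 and 0.000524. The libraries of the conditions did not overlap for any of the calls of these 5 genes. Over all genes, 26.4% were lower and 26.8% higher without overlap on knockdown, 11.5% were higher with JMJD1A(WT) than LacZ, 18% lower with the mutant than JMJD1A(WT), and 11.8% lower with the mutant than LacZ. The last 3 comparisons are not independent, since each pair of them shares the libraries of one condition. Lipe is also among the genes that the study itself selected on these libraries, and its calls are not independent evidence of their direction. The same holds for these genes named in other paragraphs: Cidec, Fabp4, Plin4, Plaat3, Retn, Dlk1, Gpd1, Aqp1, Angptl4, Akap1, Pparg, Cebpa, Srebf1, Nr1h3, C3, Qsox1, Car5b and Tmem120a. The study does not name all the genes it selected. Pnpla2, Abhd15 and other genes were also called lower on knockdown, higher with JMJD1A(WT) and lower with the mutant. Whether they were selected too is not known here, so their calls are not taken as independent evidence either.

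**Figure D1:**
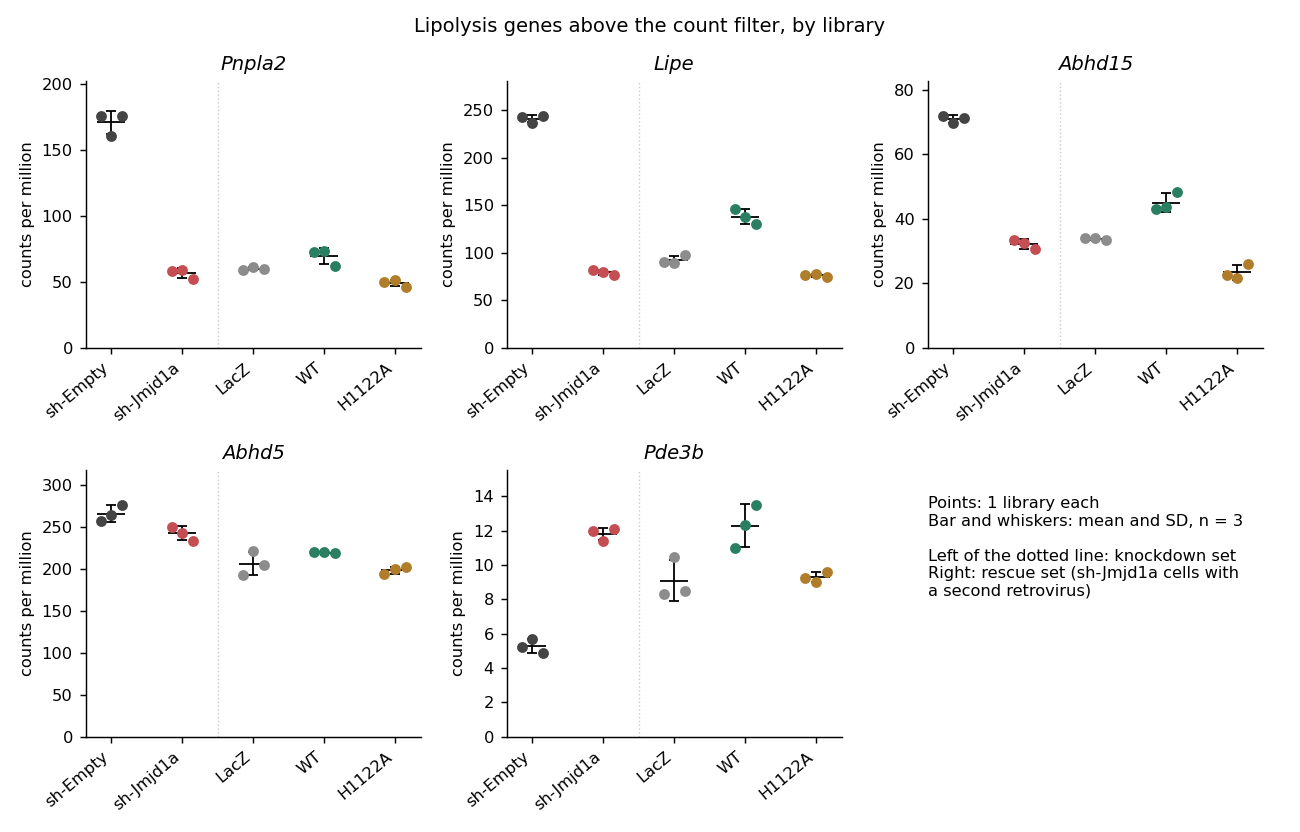
CPM of the 5 tested lipolysis genes in each library (points) with the mean and SD of 3 libraries (bar and whiskers), for sh-Empty, sh-Jmjd1a, LacZ, JMJD1A(WT) and JMJD1A(H1122A), with a linear axis from 0 in every panel. Pnpla2, Lipe and Abhd15 stand highest in sh-Empty and lowest on average with JMJD1A(H1122A), Abhd5 varies little, and Pde3b is lowest in sh-Empty at 4.86 to 5.70 CPM.

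Pnpla2, which encodes ATGL, was at 176, 161 and 176 CPM in the sh-Empty libraries and at 58.1, 59.3 and 52.2 CPM in sh-Jmjd1a. No sh-Jmjd1a library came near a control library, and the log2 fold change was -1.61 (SE 0.057, edgeR adjusted p = 4.37e-19), a level 3.05-fold lower. In the rescue set it was at 59.25, 61.4 and 59.35 CPM with LacZ, 72.8, 73.3 and 62.3 with JMJD1A(WT), and 49.5, 51.0 and 46.4 with JMJD1A(H1122A). The 3 rescue conditions did not overlap, although the lowest JMJD1A(WT) library stood just above the highest LacZ library. JMJD1A(WT) exceeded LacZ by 0.19 on the log2 scale (SE 0.063, edgeR adjusted p = 0.0417), a call that was lost with DESeq2 (adjusted p = 0.0654) and on leaving out LacZ replicate 1, 2 or 3 or JMJD1A(WT) replicate 1 or 2 (edgeR adjusted p up to 0.222). The difference of JMJD1A(H1122A) from JMJD1A(WT) was -0.49 (SE 0.067, edgeR adjusted p = 1.36e-07) and its difference from LacZ was -0.29 (SE 0.069, edgeR adjusted p = 0.0033).

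Lipe, which encodes hormone-sensitive lipase, was 3.06-fold lower on knockdown and 1.49-fold higher with JMJD1A(WT) than with LacZ. It was at 243, 237 and 244 CPM in sh-Empty and 82.2, 79.6 and 76.6 CPM in sh-Jmjd1a, a log2 fold change of -1.61 (SE 0.047, edgeR adjusted p = 6.77e-21). Levels were 90.2, 89.8 and 97.5 CPM with LacZ, 146, 138 and 130.3 with JMJD1A(WT) and 76.2, 77.8 and 74.6 with JMJD1A(H1122A). All 3 JMJD1A(WT) libraries lay above every LacZ library, and all 3 mutant libraries lay below. The log2 fold change was 0.57 for JMJD1A(WT) against LacZ (SE 0.051, edgeR adjusted p = 5.96e-12), -0.86 for JMJD1A(H1122A) against JMJD1A(WT) (SE 0.053, edgeR adjusted p = 2.34e-17) and -0.28 for JMJD1A(H1122A) against LacZ (SE 0.056, edgeR adjusted p = 0.000498).

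Mgll, the lipase of the last step, was barely detected: its raw counts were 7, 5 and 10 in sh-Empty, 1, 2 and 2 in sh-Jmjd1a, 1, 0 and 3 with LacZ, 13, 7 and 20 with JMJD1A(WT) and 5, 2 and 1 with JMJD1A(H1122A). It did not pass the filter on low counts, which asks for about 10 counts in as many libraries as a condition holds. Scaled to library size, its summed counts were 4.18-fold lower on knockdown (95% counting interval 1.54 to 14.1), 8.3 times those of LacZ with JMJD1A(WT) (3.00 to 31.9) and, for the mutant, 3.65-fold below those of JMJD1A(WT) (1.68 to 9.02). The intervals cover counting error only. In these 3 comparisons the libraries did not overlap, and the exact two-sided permutation test over libraries gave p = 0.1, the smallest that 3 against 3 allows (0.133 after adjustment over 4 comparisons). JMJD1A(H1122A) and LacZ overlapped, with a ratio of 2.27 (0.609 to 10.3). When edgeR was run with no filter, Mgll had an adjusted p of 0.0459 on knockdown, 0.00482 for JMJD1A(WT) against LacZ and 0.0454 for JMJD1A(H1122A) against JMJD1A(WT). The first of these was under 0.05 in only 1 of 6 fits that left out a library, that without sh-Empty replicate 2 (0.0463), and the others were lost without LacZ replicate 2 (0.0594), and without JMJD1A(H1122A) replicate 2 or 3 or JMJD1A(WT) replicate 1 or 3 (0.119 to 0.193).

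Abhd5, the coactivator of ATGL, kept most of its level in every condition. Its libraries were at 257, 265 and 277 CPM in sh-Empty and 251, 243 and 234 CPM in sh-Jmjd1a, groups that did not overlap but lay close. The log2 fold change of -0.15 (SE 0.043, edgeR adjusted p = 0.00632) corresponds to a level 1.11-fold lower, and without sh-Empty replicate 3 the call was lost (adjusted p = 0.0754). Rescue libraries were at 193, 221 and 205 CPM with LacZ, 220.3, 219.9 and 219 with JMJD1A(WT), and 194, 199.6 and 202.5 with JMJD1A(H1122A). The LacZ libraries spread over the range of both other conditions. JMJD1A(H1122A) was lower than JMJD1A(WT) by 0.15 (log2 fold change -0.15, SE 0.044, edgeR adjusted p = 0.00971), which was lost without JMJD1A(H1122A) replicate 1 (0.0668). JMJD1A(WT) and LacZ differed by 0.09 (95% interval 0.000934 to 0.176, edgeR adjusted p = 0.243), and JMJD1A(H1122A) and LacZ by -0.06 (-0.15 to 0.03, edgeR adjusted p = 0.471).

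G0s2, the inhibitor of ATGL, had 1 read in 1 sh-Empty library and 0 in the other 14. A count of 0 over the 3 libraries of a condition allows a level of up to 0.0578 to 0.0813 CPM, a limit that covers counting error only. A ratio of G0s2 to Pnpla2 could therefore not be computed. In its place, and chosen after the counts were seen, Abhd5, Lipe and Pde3b were each set against Pnpla2 within the same library. The Abhd5 to Pnpla2 count ratio was 1.46, 1.65 and 1.58 in sh-Empty and 4.32, 4.10 and 4.48 in sh-Jmjd1a, a mean 2.75-fold higher. With LacZ it was 3.26, 3.60 and 3.46, with JMJD1A(WT) 3.03, 3.00 and 3.51, and with JMJD1A(H1122A) 3.92, 3.91 and 4.36. JMJD1A(WT) and LacZ overlapped, while all 3 mutant libraries were above both. The Lipe to Pnpla2 ratio did not move on knockdown by more than the spread between libraries, at 1.42 ± 0.0498 (SD, n = 3) in sh-Empty and 1.41 ± 0.0622 in sh-Jmjd1a (exact two-sided permutation p = 0.9). It was 1.54 ± 0.0917 with LacZ, 1.99 ± 0.104 with JMJD1A(WT) and 1.56 ± 0.0437 with JMJD1A(H1122A), so that all 3 JMJD1A(WT) libraries stood above all others, 1.29-fold over LacZ on average. The Pde3b to Pnpla2 ratio was 0.0309 ± 0.00404 in sh-Empty and 0.210 ± 0.0196 in sh-Jmjd1a, 6.8-fold higher with no overlap. In the rescue set it was 0.151 ± 0.0167 with LacZ, 0.179 ± 0.0341 with JMJD1A(WT) and 0.190 ± 0.0152 with JMJD1A(H1122A), where JMJD1A(WT) overlapped both others and the mutant libraries all lay above LacZ. The exact permutation p was 0.1, the smallest possible, for the Lipe ratio with JMJD1A(WT) against LacZ and for the Abhd5 and Pde3b ratios on knockdown (0.171 after adjustment over 12 ratio comparisons). It was also 0.1 for the mutant against JMJD1A(WT) with the Abhd5 and Lipe ratios. The mutant against LacZ gave 0.1 with the Abhd5 and Pde3b ratios. The remaining ratio comparisons gave 0.3 to 0.9.

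**Figure D2:**
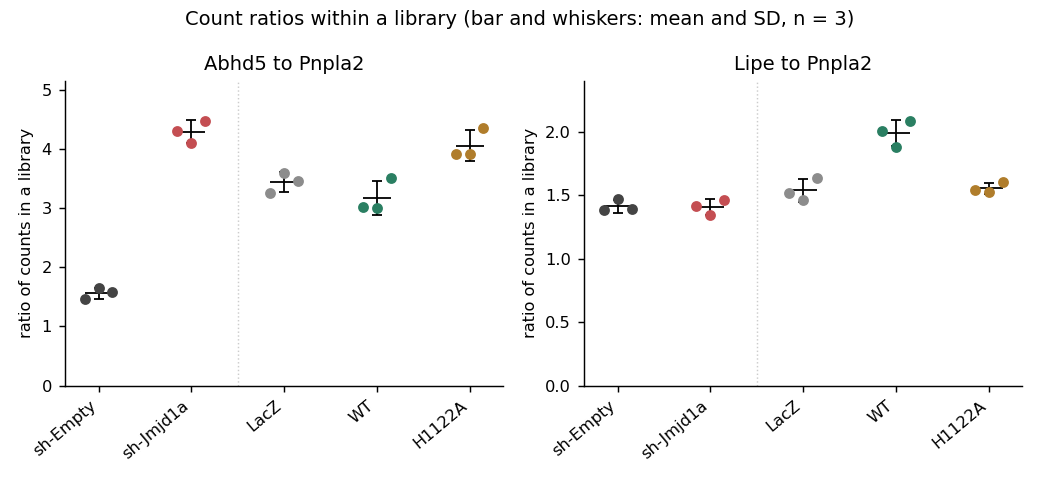
Count ratios of Abhd5 to Pnpla2 and of Lipe to Pnpla2 within each library (points), with the mean and SD of 3 libraries per condition. The Abhd5 ratio is 1.46 to 1.65 in sh-Empty and at least 3.00 in all other libraries, and the Lipe ratio is highest with JMJD1A(WT), at 1.88 to 2.09.

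Pde3b, the cAMP phosphodiesterase through which insulin restrains lipolysis, was the only one of the 5 tested genes called higher on knockdown. It was at 5.22, 5.70 and 4.86 CPM in sh-Empty and at 11.97, 11.4 and 12.1 CPM in sh-Jmjd1a, a log2 fold change of 1.16 (SE 0.15, edgeR adjusted p = 2.64e-07). The returned enzyme did not lower it. Levels were 8.30, 10.45 and 8.46 CPM with LacZ, 11, 12.35 and 13.5 with JMJD1A(WT), and 9.22, 9.03 and 9.6 with JMJD1A(H1122A). JMJD1A(WT) stood above LacZ by 0.47 (SE 0.13, edgeR adjusted p = 0.0136) and JMJD1A(H1122A) below JMJD1A(WT) (log2 fold change -0.44, SE 0.13, edgeR adjusted p = 0.0128). Leaving out LacZ replicate 1 or 3 or JMJD1A(WT) replicate 3 ended the first call (adjusted p 0.0765 to 0.183), and leaving out JMJD1A(H1122A) replicate 2 or JMJD1A(WT) replicate 3 ended the second (0.0557 and 0.143). JMJD1A(H1122A) and LacZ differed by 0.03 (95% interval -0.27 to 0.33, edgeR adjusted p = 0.943). Its difference thus had the opposite sign to that of Pnpla2 and Lipe on knockdown and the same sign for JMJD1A(WT) against LacZ.

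Abhd15, the partner of PDE3B, was lower on knockdown, where Pde3b was higher. It was at 71.9, 69.5 and 71.3 CPM in sh-Empty and 33.6, 32.4 and 30.6 CPM in sh-Jmjd1a, a log2 fold change of -1.15 (SE 0.067, edgeR adjusted p = 2.7e-14). Levels were 34.0, 34.0 and 33.3 CPM with LacZ, 43.1, 43.6 and 48.3 with JMJD1A(WT), and 22.7, 21.65 and 26.0 with JMJD1A(H1122A), with no overlap between conditions. The log2 fold change was 0.43 for JMJD1A(WT) against LacZ (SE 0.074, edgeR adjusted p = 3.47e-05), -0.96 for JMJD1A(H1122A) against JMJD1A(WT) (SE 0.082, edgeR adjusted p = 5.14e-13) and -0.54 for JMJD1A(H1122A) against LacZ (SE 0.088, edgeR adjusted p = 2.48e-05). Taok1, which overlaps Abhd15 on the other strand, was called lower on knockdown (-0.16), and for the mutant both below JMJD1A(WT) (-0.22) and below LacZ (-0.19, edgeR adjusted p = 0.0125), with smaller fitted differences than Abhd15 in the same direction.

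Aqp7, the glycerol channel, had 19 reads in all, spread over 7 libraries with at most 5 in any of them. Its summed counts were 8 in sh-Empty, 1 in sh-Jmjd1a, 2 with LacZ, 3 with JMJD1A(WT) and 5 with JMJD1A(H1122A), and the conditions overlapped in every comparison. No difference was detectable at this depth. Aqp1, a water channel, was measured well and is given with the genes of glycerol and fatty acid handling.

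**Figure D3:**
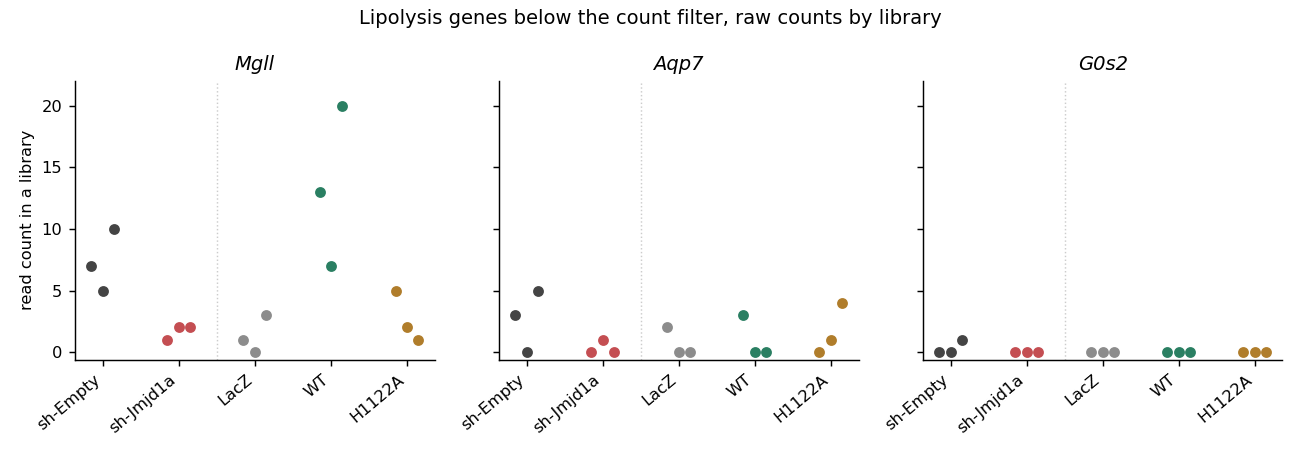
Raw read counts of Mgll, Aqp7 and G0s2 in each of the 15 libraries (points), on a shared linear axis. Mgll reaches 20 counts with JMJD1A(WT) and stays at 3 or fewer in sh-Jmjd1a and LacZ, Aqp7 does not exceed 5, and G0s2 has 1 count in 1 sh-Empty library.

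**Figure D4:**
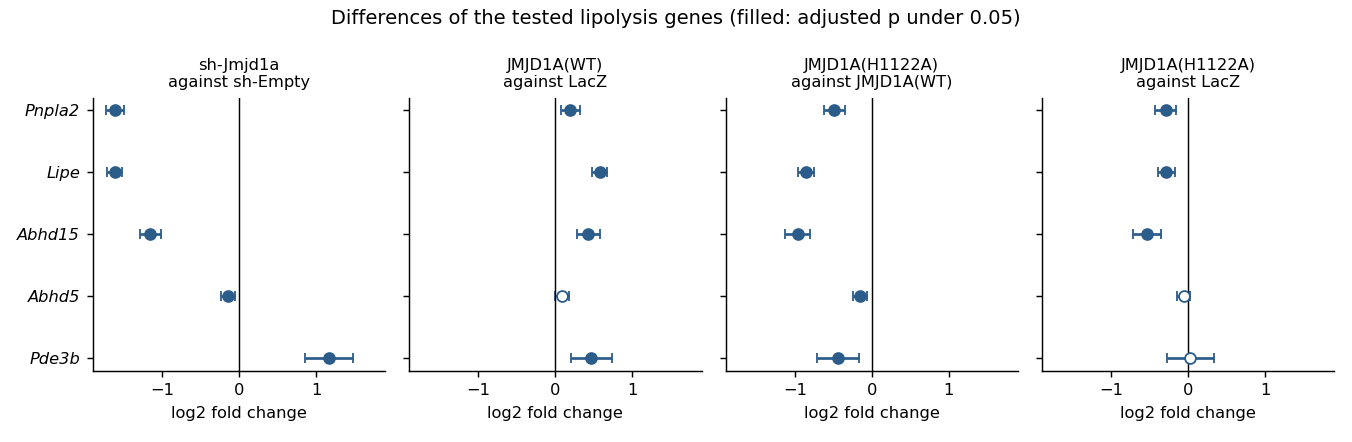
Log2 fold changes of the 5 tested genes in the 4 comparisons (horizontal axis), with 95% confidence intervals and filled points where the edgeR adjusted p is under 0.05. Pnpla2, Lipe and Abhd15 lie left of 0 on knockdown and for the mutant and right of 0 for JMJD1A(WT) against LacZ, and Pde3b lies right of 0 in the first 2 panels.

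Levels between genes were compared per kilobase of exon. In sh-Empty, Abhd5 was at 81.7 ± 3.13 CPM per kilobase (SD, n = 3), Pnpla2 at 56.5 ± 2.84, Lipe at 53.4 ± 0.885, Abhd15 at 23.4 ± 0.403 and Pde3b at 0.762 ± 0.0611. In sh-Jmjd1a the level of Abhd5 was 74.5 ± 2.56 and those of Pnpla2 and Lipe were 18.7 ± 1.26 and 17.6 ± 0.625. With LacZ, Lipe was at 20.5 and Pnpla2 at 19.9, and with JMJD1A(H1122A) they were at 16.9 and 16.2. Lipe and Pnpla2 thus lay close in every condition but JMJD1A(WT), where Lipe was at 30.6 ± 1.74 CPM per kilobase and Pnpla2 at 23.0 ± 2.04. The lengths are the union of all annotated exons, and a gene that uses a short form is understated.

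Ordered by mean level over the 5 conditions in a fit of all 15 libraries, Pnpla2, Lipe and Abhd15 ran from sh-Empty to JMJD1A(WT), LacZ, sh-Jmjd1a and JMJD1A(H1122A). The step from sh-Empty down to JMJD1A(WT) was 1.31 for Pnpla2 (SE 0.056, edgeR adjusted p = 1.04e-24), 0.81 for Lipe (SE 0.045, edgeR adjusted p = 3.08e-20) and 0.64 for Abhd15 (SE 0.064, edgeR adjusted p = 7.86e-12) on the log2 scale, so the rescue with JMJD1A(WT) left all 3 below the control. In this fit 45.6% of all 12758 genes differed between sh-Empty and JMJD1A(WT), and the second infection cannot be told apart from the set of libraries in such a comparison. Over the 5 genes, 11 of the 20 pairs of neighbours differed. The same fit called 9.37% of all genes between JMJD1A(WT) and LacZ, 6.98% between LacZ and sh-Jmjd1a, 9.34% between sh-Jmjd1a and JMJD1A(H1122A), 44.8% between sh-Empty and sh-Jmjd1a, 15.7% between sh-Jmjd1a and JMJD1A(WT), 9.24% between LacZ and JMJD1A(H1122A) and 46.3% between LacZ and sh-Empty. Pnpla2 was not called different between LacZ and sh-Jmjd1a (0.09, 95% interval -0.05 to 0.22) or between sh-Jmjd1a and JMJD1A(H1122A) (0.20, edgeR adjusted p = 0.0596), a pair that passed under 4 of the other settings (0.0183 to 0.0415). There was no call for Lipe between sh-Jmjd1a and JMJD1A(H1122A) (0.06, -0.05 to 0.17), nor for Abhd15 between LacZ and sh-Jmjd1a (0.07, -0.09 to 0.23). Abhd5 ran from sh-Empty to sh-Jmjd1a, JMJD1A(WT), LacZ and JMJD1A(H1122A), with no call between neighbours among the last 3. For Pde3b the order was JMJD1A(WT), sh-Jmjd1a, JMJD1A(H1122A), LacZ and sh-Empty, where the last step alone was called (0.79, SE 0.16, edgeR adjusted p = 5.75e-05).

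Across the 15 libraries, log2 CPM of Pnpla2 and Lipe had a Pearson correlation of 0.956, Lipe and Abhd15 0.956, Pnpla2 and Abhd5 0.773, and Pnpla2 and Pde3b -0.81. These values describe 15 points that fall into 5 conditions and share their library scaling. Among genes outside the 8, the profiles most like Pnpla2 were Aqp1 (0.991), Tmem120a (0.99) and Eif4a1 (0.989), and those most like Lipe were the complement gene C3 (0.997), Qsox1 (0.995) and the carnitine acetyltransferase gene Crat (0.995). Abhd15 was closest to Car5b (0.985), the perilipin gene Plin1 (0.984) and Mapk6 (0.981). Abhd5 was closest to Krt15 and Wdr3 (both 0.933) and Akr1b3 (0.931), and Pde3b to Steap2 (0.967), Slfn2 (0.966) and Prkg2 (0.961), the last a cGMP-dependent kinase gene.

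The rest of the pathway was read from 6 lists with 118 genes, of which 85 had enough reads on the knockdown side and 87 on the rescue side. On knockdown 32 were called lower and 22 higher. With JMJD1A(WT) 5 were lower and 24 higher than with LacZ, and with JMJD1A(H1122A) 34 were lower and 11 higher than with JMJD1A(WT). The mutant against LacZ gave 18 lower and 4 higher. Over all genes tested, 23.9% were called lower and 22.3% higher on knockdown, and 4.52% and 4.98% with JMJD1A(WT) against LacZ. The mutant gave 11.7% and 12.1% against JMJD1A(WT), and 4.46% and 4.78% against LacZ. For each list the genes with values are those called in the first 3 of these comparisons. Those that the study names as selected on these libraries are given above, and others with the same calls may also have been selected.

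Other lipases and droplet proteins were more often lower than higher on knockdown. Of 20 tested on knockdown, 10 fell and 3 rose, and of 21 in the rescue set 8 rose and 0 fell with JMJD1A(WT) against LacZ, while 10 fell and 3 rose with JMJD1A(H1122A) against JMJD1A(WT). The median log2 fold change of the list was -0.16, 0.12 and -0.18 in these comparisons. Plin1, the droplet coat protein that holds ABHD5, changed by -2.36 on knockdown, 0.50 with JMJD1A(WT) and -1.66 with the mutant against JMJD1A(WT) on the log2 scale. Cidec, a droplet fusion protein that also holds lipolysis back, changed by -2.57, 1.40 and -2.27, and Fabp4, a fatty acid carrier that binds HSL, by -1.87, 1.25 and -2.37. The coat gene Plin4 (-0.99, 0.85 and -1.32), the carboxylesterase gene Ces1f (-0.99, 0.74 and -1.06), the phospholipase gene Plaat3 (-1.07, 1.18 and -1.45) and the lipoprotein lipase gene Lpl (-0.74, 0.10 and -0.37) had the same signs. Plin1, Cidec, Fabp4 and Lpl are also among the adipocyte markers described above, so their calls are not a result apart from those of the markers.

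For glycerol and fatty acid genes, of 10 tested, 6 fell and 1 rose on knockdown, 5 rose and 0 fell with JMJD1A(WT), and 5 fell and 0 rose with JMJD1A(H1122A) against JMJD1A(WT), with medians of -0.46, 0.14 and -0.26. Gpd1, which makes glycerol phosphate, changed by -3.02, 1.27 and -1.83, the acyl-CoA synthetase gene Acsl1 by -1.96, 0.58 and -1.44, and the fatty acid transporter gene Cd36 by -0.61, 0.48 and -1.54. Aqp1 (-1.03, 0.24 and -0.36) and Angptl4 (-0.32, 0.16 and -0.25), a secreted inhibitor of lipoprotein lipase, differed less.

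Among 12 tested transcriptional regulators with a known part in lipase expression, 5 fell and 4 rose on knockdown. With JMJD1A(WT) 5 rose and 3 fell, and with the mutant against JMJD1A(WT) 4 fell and 3 rose (medians -0.025, 0.07 and -0.035 in this order). Pparg, the master regulator of adipocyte genes, changed by -0.89, 0.36 and -0.84, Cebpa by -1.35, 0.81 and -1.86, Srebf1 by -0.66, 0.21 and -0.20 and Nr1h3, which encodes LXR alpha, by -1.23, 0.58 and -0.74. The early factor Cebpd (0.59, -0.19 and 0.34) and the repressor gene Snai1 (0.44, -0.18 and 0.27) had the opposite signs. Egr1, an immediate early factor, was higher in all 3 comparisons (1.23, 0.68 and 0.41).

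Genes of the cAMP and cGMP signal were called in both directions, on knockdown at shares not far from the 23.9% lower and 22.3% higher of all genes. Of 17 tested in this list, 5 fell and 3 rose on knockdown, and 3 rose and 1 fell with JMJD1A(WT). With JMJD1A(H1122A) against JMJD1A(WT) 9 fell and 1 rose, where 11.7% of all genes were called lower and 12.1% higher. The medians were 0.046, 0.066 and -0.14 in this order. The kinase anchor gene Akap1 changed by -0.27, 0.22 and -0.29, whereas Prkg2 rose on knockdown and with JMJD1A(WT) (1.30 and 0.33) and fell with the mutant (-0.52). Of 8 other phosphodiesterase genes tested on knockdown, 5 rose and 1 fell. In the rescue set 2 of 9 rose and 0 fell with JMJD1A(WT), and 2 fell and 0 rose with the mutant against JMJD1A(WT) (medians 0.49, 0.046 and -0.02). Pde2a, a cGMP-stimulated phosphodiesterase gene, had the signs of Pde3b, at 1.13, 0.99 and -1.69. Insulin signalling and inhibitory receptor genes were 5 of 18 lower and 6 higher on knockdown, 1 lower and 1 higher with JMJD1A(WT), and 4 lower and 4 higher with the mutant against JMJD1A(WT) (medians 0.073, 0.018 and -0.017). On knockdown and with JMJD1A(WT) these counts are not far from the shares over all genes, which were 4.52% lower and 4.98% higher with JMJD1A(WT). No gene of this list was called in all 3. Its genes with the smallest adjusted p on knockdown were the prostaglandin synthase gene Ptgs2 (2.31, SE 0.19, edgeR adjusted p = 5.43e-11) and the insulin kinase gene Akt2 (-0.53, SE 0.049, edgeR adjusted p = 4.14e-10).

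**Figure D5:**
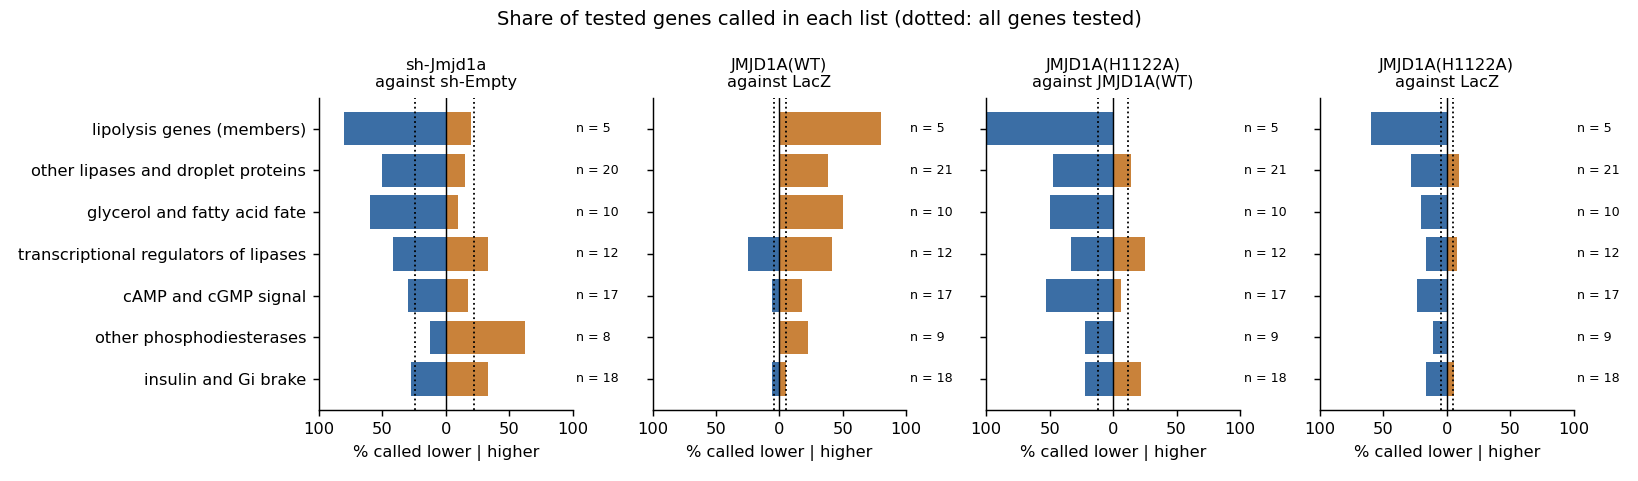
Percentage of the tested genes of each list called lower (left, blue) or higher (right, orange) in the 4 comparisons at an edgeR adjusted p under 0.05, with the number tested beside each bar and dotted lines at the percentages over all genes tested. On knockdown the lipase and glycerol lists lie mostly to the left and the other phosphodiesterases mostly to the right, with 5 of 8 higher.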

How the data were processed

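Gene expression was measured by RNA-seq in differentiating 3T3-L1 cells (day 2). Per the labels, the authors trimmed reads with fastp, aligned them with HISAT2 to mm9 and counted them with featureCounts, and they deposited 1 table of raw counts per gene for each library; the annotation, multi-mapping and strand settings are not given in the sources used here. Gene numbers were paired with symbols for 24191 of 26301 rows, and rows without a symbol (0.5% of counts) were kept in library sizes and tests. Exon lengths and mm9 coordinates came from the NCBIM37 annotation, and promoter windows from RefSeq on GRCm38.p6.

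Each set (6 knockdown libraries, 9 rescue libraries) was fitted apart with edgeR 4.0.16 (R 4.3.3): filterByExpr with a minimum count of 10, TMM scaling and the robust quasi-likelihood F test, with Benjamini-Hochberg adjustment over all genes tested and a threshold of 0.05. CPM levels use TMM over all 15 libraries, and log2 CPM a prior count of 2. Mgll and the count ratios were tested by exact two-sided permutation of libraries, and limits for a 0 count use 3 counts. Replicates differed by more than sampling noise in all 15 pairs (chi-square per degree of freedom 2.06 to 5.22), so none was treated as a duplicate deposit of another, which does not show that they are separate cultures. The test was checked on simulated counts. Named genes are the 8 members, Kdm3a, the listed genes called in 3 comparisons (or the 2 with the smallest adjusted p on knockdown), and the 3 genes most correlated with each member; Taok1, Trp53i13, Gm10392 and 4732471J01Rik are named for their overlap and Tie1 for its counts. Members and lists were chosen with earlier results of these data known. Alternatives were RLE scaling, other filters, the legacy method, DESeq2 1.42.0, a replicate block, thinning to the smallest total, all libraries in a single fit, a threshold of 0.01 and leaving out each library.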

Additional observations from a re-analysis of the deposited data

How the results depend on the processing

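Over the 20 pairs of a tested gene and a comparison, 340 of 360 values under the alternatives kept their direction and their side of the threshold, 18 kept only the direction and 2 turned sign; the changes fell on 6 of the 20. The sign of Pde3b for JMJD1A(H1122A) against LacZ, never called, went from 0.029 to -0.033 without LacZ replicate 1 and to -0.016 without LacZ replicate 3, over a range up to 0.14 when each library was left out. With a threshold of 0.01 the genes called higher with JMJD1A(WT) than LacZ went from 4 to 2, as Pnpla2 and Pde3b did not pass, by construction of the stricter threshold. Leaving out 1 library at a time gave 3 to 4 genes lower on knockdown (1 higher), 3 to 5 higher with JMJD1A(WT) than LacZ, 4 to 6 lower with JMJD1A(H1122A) than JMJD1A(WT), 3 lower with JMJD1A(H1122A) than LacZ, and 9 to 11 differing neighbours; the counts of 5 and 6 include a gene below the filter in the full fit. Among neighbours in the order of levels, leaving out a library ended the step of Pnpla2 from JMJD1A(WT) to LacZ (LacZ replicate 1, 0.108, 2, 0.0612, or 3, 0.118, or JMJD1A(WT) replicate 1, 0.194, or 2, 0.178, as edgeR adjusted p), that of Lipe from LacZ to sh-Jmjd1a (without LacZ replicate 3, adjusted p = 0.0693) and those of Abhd5 from sh-Empty to sh-Jmjd1a (sh-Empty replicate 3, 0.0857, or sh-Jmjd1a replicate 3, 0.0502) and from sh-Jmjd1a to JMJD1A(WT) (sh-Jmjd1a replicate 1, 0.117, or JMJD1A(WT) replicate 3, 0.0517). Thinning all libraries to the smallest total ended the calls of Pnpla2 for JMJD1A(WT) against LacZ (adjusted p = 0.0837) and of Pde3b for JMJD1A(H1122A) against JMJD1A(WT) (0.0516). In the pathway lists, genes lower with JMJD1A(WT) than LacZ went from 5 to 3 at 0.01 and in the fit of all 15 libraries. Over the 9 fits that left out 1 library this count ran from 2 to 5, and it was 3 or fewer in 6 of them. It was 2 without LacZ replicate 3. Genes higher with JMJD1A(H1122A) than LacZ went from 4 to 1 at 0.01 and to 2 without LacZ replicate 3. Genes higher with JMJD1A(H1122A) than JMJD1A(WT) went from 11 to 7 without JMJD1A(H1122A) replicate 1.

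Replicate numbers are shared between conditions. Deviations of same-numbered libraries correlated at -0.0442 to 0.0321 in the knockdown set and -0.015 to 0.0541 in the rescue set. For libraries with different numbers the ranges were -0.0403 to 0.0645 in the knockdown set and -0.0566 to 0.0227 in the rescue set. In the knockdown set 2 of 6 libraries correlated best with their own number, and in the rescue set 6 of 9. Whether the numbers pair the libraries was not tested further. With the replicate number as a block the counts stayed at 4 lower and 1 higher on knockdown, 4 higher with JMJD1A(WT) than LacZ, 5 lower with JMJD1A(H1122A) than JMJD1A(WT), 3 lower with JMJD1A(H1122A) than LacZ and 11 differing neighbours, and no call of the 5 genes changed. The planned ratio of G0s2 to Pnpla2 gave no value under any setting, since G0s2 had 1 read. The Abhd5, Lipe and Pde3b ratios, the fits of Mgll and Aqp7 without a filter and those of Mgll without 1 library were chosen after seeing the data.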
